A study of Macaca mulatta with 22 samples.

Results

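Ligands and receptors that drive the growth and stability of blood vessels were followed in single ovulatory follicles of rhesus macaques. The members were 9 genes, ANGPT1, FGF2, PROK1, PGF and VEGFB among the ligands and FLT1, KDR, NRP1 and TEK among the receptors. They were found as every probe set whose single gene symbol in the platform annotation was one of these names, which gave 9 of the 14132 genes named there, and 17 of the 24956 probe sets with a single symbol among 52766 tested. ANGPT1 had 4 probe sets, NRP1 had 3, FLT1, TEK and VEGFB had 2 each, and FGF2, PROK1, KDR and PGF had 1 each.

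The 22 arrays, Affymetrix rhesus macaque arrays with 1 follicle each, formed 5 groups. There were 6 follicles at 0 h and 4 each at 12 h and 24 h. At 36 h there were 4 unruptured follicles, taken before ovulation, and 4 ruptured ones, taken after it. Hours are counted from hCG in every group that received it. All groups came from females under controlled ovulation: once estradiol had risen to a set level, each received the GnRH antagonist Acyline together with FSH and LH of recombinant human origin. Groups after 0 h also received hCG, and the 0 h group did not. Neither age nor the identity of the animal was given for each array, so p-values measure only the spread between these follicles. Titles and source names call every sample a follicle, whereas the free-text description of all but 1 speaks of a developing corpus luteum; the titles were followed. Replicates 5 to 8 at 36 h were the ruptured follicles, as the titles number them.

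The preovulatory follicle is fed from capillaries in the theca, the outer cell layer, and the granulosa layer inside it has no vessels until ovulation. After the ovulatory stimulus, vessels cross the dissolving basement membrane into the granulosa layer, and the corpus luteum that results is densely supplied with capillaries. VEGF-family ligands act through the receptor tyrosine kinases FLT1 and KDR with NRP1 as a coreceptor. ANGPT1 activates TEK, also called TIE2, and favours quiet, pericyte-covered vessels. FGF2 acts through FGF receptors with heparan sulfate proteoglycans, and PROK1 acts through G protein-coupled receptors of steroid-producing tissues. VEGFA, VEGFC, VEGFD, ANGPT2 and PROK2 had no probe set under a single symbol and were not analysed here.

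Levels are log2 of the deposited intensity, a scale on which a difference of 1 is a change by a factor of 2. Differences are given as later minus earlier stage with the standard error (SE) of limma's fit to all 22 arrays, and a probe set was called at a Benjamini-Hochberg adjusted p below 0.05 over all 52766 probe sets. A gene is given by its brightest probe set unless another is named. The middle probe set of the arrays had a mean level of 4.63. The members at or above it were the brightest sets of ANGPT1, FGF2, PROK1, NRP1, TEK, PGF and VEGFB, and both FLT1 sets and the KDR set lay below it. FGF2 also lay below it at 0 h, at 24 h and in unruptured follicles (means of 4.46, 4.41 and 4.37), as did PGF at 0 h (4.30). No detection call was given, so values at these dim levels may be mostly background, which was not tested. Fold changes from such levels depend on that background.

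ANGPT1, FGF2, PROK1 and PGF were called between some pairs of groups, partly the same pairs. TEK was called in 3 pairs, and VEGFB, FLT1, KDR and NRP1 in none. ANGPT1 rose 2.41-fold by 24 h and 2.80-fold in unruptured 36 h follicles and was 2.18-fold lower in ruptured ones. FGF2 was 3.81-fold higher in ruptured than in unruptured follicles. PROK1 was 3.09-fold lower at 12 h than at 0 h, and PGF was 2.91-fold higher in ruptured follicles than at 0 h. TEK was 1.50-fold lower in ruptured than in unruptured follicles by its brighter set and 2.01-fold lower at 24 h than at 0 h by its dimmer set. Over the 5 groups, limma's F test called 6 of the 17 probe sets, where 20.1% of all probe sets were called. They were 3 of the 4 sets of ANGPT1 (adjusted p = 0.00225 for the brightest), FGF2 (adjusted p = 0.00215), PROK1 (adjusted p = 0.0316) and the dimmer TEK set (adjusted p = 0.0279).

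**Figure D1:**
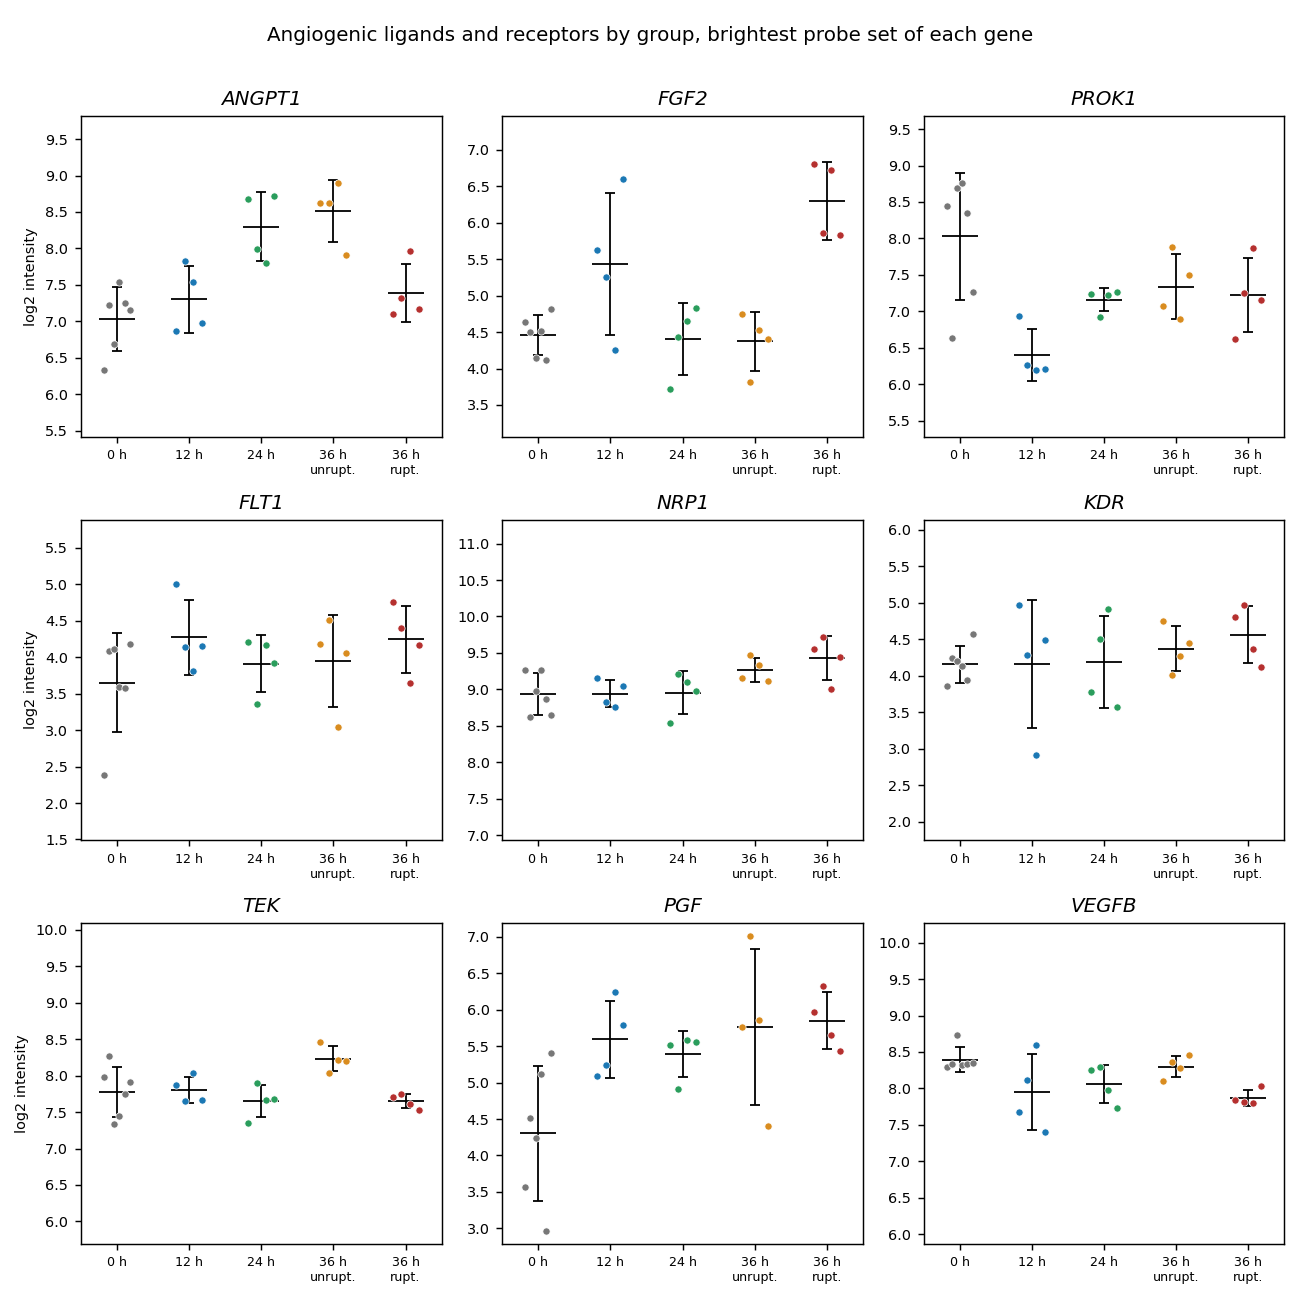
Log2 intensity of the 9 genes in each of the 22 follicles, by group, for the brightest probe set of each gene. Points are follicles, horizontal lines are group means and bars are SD; each panel spans the same number of log2 units, and levels are not comparable between panels. ANGPT1 is highest at 24 h and in unruptured 36 h follicles, FGF2 in ruptured ones and PROK1 at 0 h, while FLT1, NRP1 and KDR groups overlap.

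ANGPT1, the ligand that activates TEK, was measured by MmugDNA.9153.1.S1_at as its brightest set. At 0 h the lowest, median and highest follicles were at 6.34, 7.19 and 7.53. The 12 h follicles were at 6.86, 7.83, 7.54 and 6.98, the 24 h follicles at 8.68, 7.99, 7.80 and 8.72, the unruptured follicles at 8.63, 8.63, 8.89 and 7.91, and the ruptured follicles at 7.10, 7.32, 7.97 and 7.17. All follicles at 24 h and all unruptured ones were above every 0 h follicle, and the ruptured follicles returned to the range of the 0 h and 12 h groups but for 1 follicle.

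Ordered by mean, ANGPT1 ran from 0 h (7.03 ± 0.44, SD, n = 6) through 12 h (7.30 ± 0.46, n = 4), ruptured (7.39 ± 0.40, n = 4) and 24 h (8.30 ± 0.47, n = 4) to unruptured (8.51 ± 0.42, n = 4). No pair of neighbours in that order passed the test. The closest was ruptured against 24 h, at -0.91 (SE 0.31, adjusted p = 0.0712), and the others had adjusted p of 0.641, 0.942 and 0.958. Against 0 h, ANGPT1 rose by 1.27 at 24 h (SE 0.28, adjusted p = 0.0148) and by 1.48 in unruptured follicles (SE 0.28, adjusted p = 0.00448). Unruptured follicles were also 1.21 above 12 h follicles (SE 0.31, adjusted p = 0.0156). Ruptured follicles fell by 1.12 against unruptured ones (SE 0.31, adjusted p = 0.0241), with the highest ruptured follicle at 7.97 just above the lowest unruptured one at 7.91.

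Single follicles decided some of these ANGPT1 calls. The rise at 24 h over 0 h was 1.14 without 24 h replicate 1 (adjusted p = 0.0641) and 1.12 without 24 h replicate 4 (adjusted p = 0.0704). The excess of unruptured over 12 h follicles lost its call without 12 h replicate 1, 12 h replicate 4 or unruptured replicate 3, with adjusted p from 0.0528 to 0.0594. The fall on rupture lost its call without unruptured replicate 1, 2 or 3 or ruptured replicate 5, 6 or 8, where it ran from -1.10 to -0.998 with adjusted p from 0.0522 to 0.0750. Fitting only the groups compared also ended these 3 calls (adjusted p of 0.0557, 0.0820 and 0.0869). The degradation index of the arrays (3′ over 5′ signal of control transcripts, in log2) was 0.323 ± 0.039 in unruptured and 0.268 ± 0.033 in ruptured follicles (SD), and with it as a covariate the fall on rupture was -1.05 and no longer called (adjusted p = 0.0611). From 12 h to 24 h this set stood at 0.99 (SE 0.31, adjusted p = 0.0584), which passed without 0 h replicate 1, 12 h replicate 2, 24 h replicate 3 or ruptured replicate 7 (adjusted p from 0.0387 to 0.0497).

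The ANGPT1 set MmuSTS.3789.1.S1_at separated the groups more cleanly. Its 0 h follicles had a lowest, median and highest level of 5.82, 6.58 and 7.12, and the 12 h follicles were at 6.59, 7.36, 6.80 and 6.78. The 24 h follicles were at 8.39, 8.09, 7.68 and 8.18, the unruptured ones at 7.93, 8.08, 8.41 and 7.86, and the ruptured ones at 6.67, 7.16, 7.28 and 6.73. The 24 h and unruptured groups overlapped with each other and with none of the other 3 groups.

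By that set ANGPT1 rose by 1.61 from 0 h to 24 h (SE 0.24, adjusted p = 8.19e-04), rose by 1.20 from 12 h to 24 h (SE 0.26, adjusted p = 0.00915), stood at -0.01 between 24 h and unruptured follicles (SE 0.26, adjusted p = 0.999) and fell by 1.11 on rupture (SE 0.26, adjusted p = 0.0109). Each of these 3 calls was kept when any 1 of the 22 arrays was left out, and a fit of the 12 h and 24 h groups alone gave an adjusted p of 0.0687 for the second. The set MmugDNA.9153.1.S1_s_at, which carries the same target name as the brightest, had group means of 6.79, 7.21, 7.91, 8.04 and 7.11 in stage order, and its difference of 1.25 between 0 h and unruptured follicles was called (SE 0.35, adjusted p = 0.0454). That call was lost without 0 h replicate 1, 2 or 3, 12 h replicate 2, 3 or 4, 24 h replicate 2, any unruptured follicle or ruptured replicate 5, 6 or 7 (adjusted p up to 0.147), and its F test call without any of 18 of the 22 arrays (adjusted p up to 0.0999). The dimmest set, MmugDNA.20429.1.S1_at, had a mean level of 1.67 over all arrays, and its group means ran the other way, from 2.90 at 0 h to 1.06 at 24 h and 0.41 in unruptured follicles, with no pair called. Without unruptured replicate 2, which was at 3.10, it was called by the F test (adjusted p = 0.0162), and it was lower in unruptured than in 0 h follicles (-3.38, adjusted p = 0.0225) and 12 h follicles (-3.15, adjusted p = 0.0282) and in ruptured than in 0 h follicles (-2.22, adjusted p = 0.0421). The last difference also passed without ruptured replicate 6 (-2.97, adjusted p = 0.0232), and the F test without that array (adjusted p = 0.0332) or 24 h replicate 4 (adjusted p = 0.0460).

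**Figure D2:**
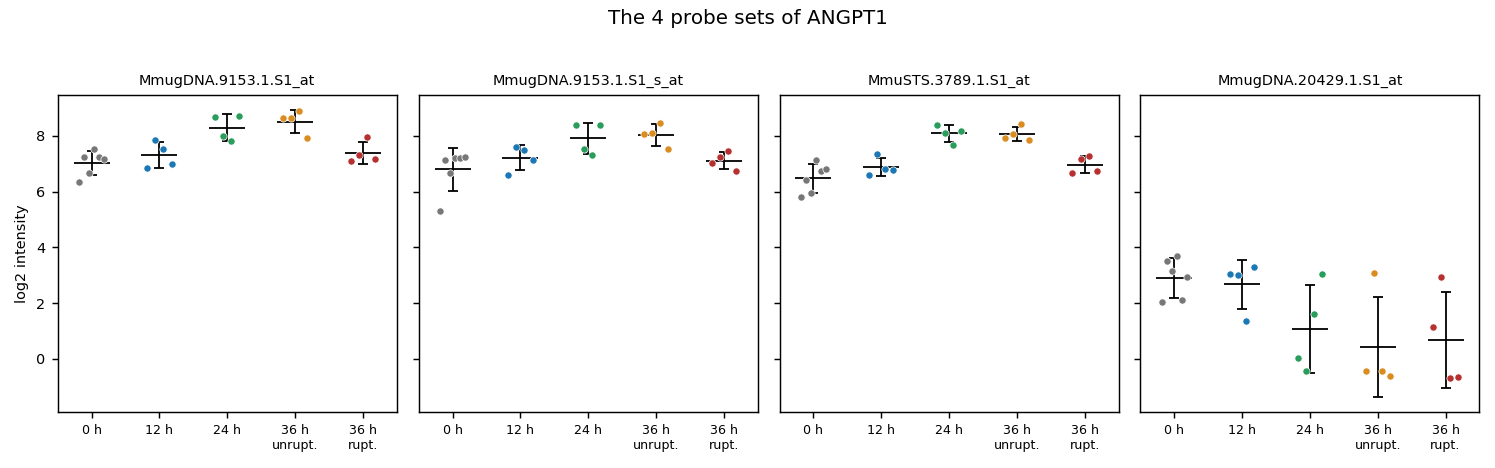
Log2 intensity of the 4 ANGPT1 probe sets in each follicle, by group, on a shared axis; points are follicles, lines are means and bars are SD. The first 3 sets are higher at 24 h and in unruptured follicles than at 0 h, whereas the dimmest set runs the other way with a wide spread.

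FGF2, a heparin-binding growth factor for endothelial and granulosa cells, was highest after rupture. Its single probe set had a lowest, median and highest level of 4.12, 4.51 and 4.82 at 0 h. The 12 h follicles were at 5.63, 5.26, 4.25 and 6.60, the 24 h follicles at 3.71, 4.43, 4.65 and 4.83, the unruptured follicles at 4.75, 3.81, 4.53 and 4.41, and the ruptured ones at 6.81, 5.86, 6.72 and 5.83. Every ruptured follicle was above every follicle at 0 h, at 24 h and unruptured at 36 h, while 12 h follicles spread across the whole range.

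In order, the FGF2 means were 4.37 ± 0.40 for the unruptured group, 4.41 ± 0.49 at 24 h, 4.46 ± 0.28 at 0 h, 5.43 ± 0.97 at 12 h and 6.30 ± 0.53 in ruptured follicles (SD, n = 4, and n = 6 at 0 h). The largest difference among the lowest 3 groups, unruptured against 0 h, was -0.08 (SE 0.35, adjusted p = 0.945). Rupture brought a rise of 1.93 over unruptured follicles (SE 0.38, adjusted p = 0.00328), of 1.90 over 24 h (SE 0.38, adjusted p = 0.00379) and of 1.85 over 0 h (SE 0.35, adjusted p = 0.00114). The difference of 0.87 between ruptured and 12 h follicles was not called (SE 0.38, adjusted p = 0.296). The 3 calls on ruptured follicles held when any single array was left out, and all 3 were lost with the replicate number as a block. That block fit is a weak check here, since numbers 7 and 8 occur only in ruptured follicles. Numbers 5 and 6 recur only at 0 h, so the fit takes the ruptured level from replicates 5 and 6 alone.

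At 12 h, FGF2 was 0.98 above 0 h (SE 0.35, adjusted p = 0.0922), which was not called and depended on 12 h replicate 3 and on the sets tested. Without that follicle the difference was 1.37 (adjusted p = 0.0121), and the change from 12 h to 24 h went from -1.03 (adjusted p = 0.126) to -1.42 (adjusted p = 0.0194). The 12 h replicate 3 array also had the highest degradation index, at 0.482 against 0.288 to 0.323 in the other 12 h arrays. With that index as a covariate, the FGF2 difference was 1.10 at 12 h against 0 h (SE 0.35, adjusted p = 0.0652) and -1.29 from 12 h to 24 h (SE 0.42, adjusted p = 0.0910), neither called. With no array left out, the difference of 0.98 passed when only sets at or above the median brightness were tested (adjusted p = 0.0385). In that run unruptured follicles stood at -1.06 against 12 h ones and passed too (adjusted p = 0.0390).

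PROK1, also known as endocrine gland-derived VEGF, was highest before hCG. The lowest, median and highest 0 h follicles were at 6.63, 8.40 and 8.77 by MmugDNA.10399.1.S1_at. The 12 h follicles were at 6.93, 6.27, 6.19 and 6.20, the 24 h follicles at 7.23, 6.93, 7.22 and 7.26, the unruptured ones at 7.08, 7.88, 6.89 and 7.50, and the ruptured ones at 6.62, 7.26, 7.86 and 7.15. The 0 h group was high but for replicates 2 and 6, and replicate 2 lay among the 12 h follicles.

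PROK1 fell by 1.63 from 0 h (8.03 ± 0.87, SD, n = 6) to 12 h (6.40 ± 0.36, SD, n = 4; SE 0.36, adjusted p = 0.00714), where 1 of the 17 member probe sets and 9.33% of all probe sets were called in either direction. The call was kept without any 1 of the 22 arrays, over a range from -1.91 to -1.48, and was lost in a fit of these 2 groups alone (adjusted p = 0.0636). The later means were 7.16 ± 0.16 at 24 h, 7.22 ± 0.51 in ruptured and 7.34 ± 0.44 in unruptured follicles. Among 12 h, 24 h, ruptured, unruptured and 0 h follicles, in the order of their means, no neighbours differed by the test (adjusted p of 0.304, 0.955, 0.915 and 0.353). Against 0 h, PROK1 stood at -0.87 at 24 h (adjusted p = 0.236), and ruptured follicles stood at -0.80 (adjusted p = 0.155). Without 0 h replicate 2 both passed, at -1.14 (adjusted p = 0.0445) and -1.08 (adjusted p = 0.0186). With the pericyte and smooth muscle marker mean as a covariate, an alternative chosen after seeing the data, the F test on PROK1 was not called (adjusted p = 0.050007) and the fall at 12 h was (-1.48, adjusted p = 0.0152). The F test on PROK1 lost its call without any of 7 arrays, namely 4 at 0 h (replicates 1, 3, 4 and 5) and 3 at 12 h (replicates 2, 3 and 4), with adjusted p up to 0.0737.

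PGF, placental growth factor, is a VEGF-family ligand that binds FLT1 and not KDR. Its 0 h follicles, by MmugDNA.209.1.S1_at, had a lowest, median and highest level of 2.97, 4.38 and 5.40. The 12 h follicles were at 5.09, 5.25, 6.24 and 5.79, the 24 h follicles at 5.52, 4.92, 5.59 and 5.55, the unruptured follicles at 5.77, 7.01, 5.85 and 4.40, and the ruptured ones at 5.97, 6.33, 5.65 and 5.44. The ruptured follicles were all above the 0 h follicles, by a gap of 0.03, and the other groups overlapped with them.

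The PGF mean of 4.30 ± 0.92 at 0 h was the lowest, followed by 24 h (5.39 ± 0.32), 12 h (5.59 ± 0.52), unruptured (5.76 ± 1.07) and ruptured follicles (5.85 ± 0.39; SD). PGF rose by 1.54 from 0 h to ruptured follicles (SE 0.46, adjusted p = 0.0268), a comparison in which 2 of the 17 member sets, PGF and FGF2, and 15.8% of all sets were called. The differences of 1.29 at 12 h, 1.09 at 24 h and 1.46 in unruptured follicles against 0 h were not called (adjusted p of 0.0911, 0.243 and 0.0808). No pair of groups after 0 h differed in PGF by the test, with changes between -0.20 and 0.45. The PGF call was lost without 0 h replicate 1 (1.40, adjusted p = 0.0583), 0 h replicate 5 (1.28, adjusted p = 0.0587), ruptured replicate 5 (1.50, adjusted p = 0.0656) or ruptured replicate 6 (1.38, adjusted p = 0.0869). Without 0 h replicate 6, the differences at 12 h and in unruptured follicles passed, at 1.51 (adjusted p = 0.0476) and 1.68 (adjusted p = 0.0471), the latter also without unruptured replicate 4 at 1.91 (adjusted p = 0.0286). With no array left out, the unruptured difference passed with 16 added before log2, with trend and robust options or with only the brighter sets tested (adjusted p of 0.0499, 0.0433 and 0.0313). The 12 h difference passed only in the last of these runs (adjusted p = 0.0382).

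VEGFB, another ligand of FLT1 and NRP1, had no called pair of groups. By MmuSTS.4631.1.S1_at the 0 h follicles had a lowest, median and highest level of 8.29, 8.33 and 8.74. The 12 h follicles were at 7.68, 8.12, 8.59 and 7.40, the 24 h follicles at 8.25, 8.30, 7.97 and 7.73, the unruptured follicles at 8.11, 8.36, 8.27 and 8.46, and the ruptured ones at 7.84, 7.81, 7.81 and 8.04. All ruptured follicles were below all 0 h and all unruptured follicles.

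Ruptured follicles had the lowest VEGFB mean, 7.87 ± 0.11, followed by 12 h at 7.95 ± 0.52, 24 h at 8.06 ± 0.26, unruptured at 8.30 ± 0.15 and 0 h at 8.39 ± 0.17 (SD). The change from unruptured to ruptured was -0.43 (SE 0.20, adjusted p = 0.213), and that from 0 h to ruptured was -0.52 (SE 0.18, adjusted p = 0.0607). The second passed without 12 h replicate 3 or 4 (adjusted p of 0.0213 and 0.0325), and also in a fit of these 2 groups alone, with array weights, with 16 added, with trend and robust options and with only the brighter sets tested (adjusted p from 0.0238 to 0.0452). The dimmer VEGFB set, MmugDNA.8259.1.S1_at, also had every ruptured follicle below every unruptured one, at 1.13, 4.70, 5.20 and 4.89 against 5.44, 5.40, 5.30 and 5.37, with a change of -1.40 (SE 0.63, adjusted p = 0.189). Its 12 h follicles, at 4.57, 3.44, 4.34 and 2.55, were below all 0 h follicles, whose lowest was 4.76, with a change of -1.38 (SE 0.57, adjusted p = 0.155). Ruptured replicate 5 widened the spread of that set. Without that follicle the 12 h change of -1.38 had an adjusted p of 0.00721. The differences of 24 h and unruptured from 12 h follicles then passed too, at 1.18 (adjusted p = 0.0383) and 1.65 (adjusted p = 0.00364). With 16 added before log2 and no array left out, the 12 h change was smaller, at -0.74, and passed (adjusted p = 0.0348). In that run unruptured follicles were 0.93 above 12 h ones (adjusted p = 0.0146), and the F test passed (adjusted p = 0.0319). With only the brighter sets tested, the difference of 1.65 passed (adjusted p = 0.0492) and the 12 h change did not. Neither run called 24 h against 12 h follicles.

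Within the 12 h group, FGF2 and VEGFB ran in opposite order. This describes 4 follicles for 1 of many pairs of members and was not tested. Replicate 4 had the highest FGF2 (6.60) and the lowest VEGFB (7.40), and replicate 3 had the lowest FGF2 (4.25) and the highest VEGFB (8.59), with replicates 1 and 2 between them. The array of replicate 3 also had the highest degradation index (0.482). Without replicate 3, VEGFB at 12 h changed by -0.66 against 0 h (adjusted p = 0.0161), compared with -0.45 (SE 0.18, adjusted p = 0.147) in all follicles.

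TEK, the endothelial receptor for angiopoietins, was highest in unruptured 36 h follicles by its brighter set, but not by its dimmer set. By MmuSTS.1184.1.S1_at its 0 h follicles had a lowest, median and highest level of 7.33, 7.83 and 8.26. The 12 h follicles were at 7.88, 7.65, 8.03 and 7.66, the 24 h follicles at 7.35, 7.90, 7.67 and 7.68, the unruptured follicles at 8.46, 8.04, 8.21 and 8.21, and the ruptured ones at 7.70, 7.75, 7.61 and 7.53. The unruptured follicles did not overlap with those at 12 h, at 24 h or after rupture, and they overlapped with 0 h through 1 follicle.

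The TEK means were 7.65 ± 0.10 in ruptured follicles, 7.65 ± 0.22 at 24 h, 7.78 ± 0.35 at 0 h, 7.80 ± 0.18 at 12 h and 8.23 ± 0.17 in unruptured follicles (SD). TEK fell by 0.58 on rupture (SE 0.18, adjusted p = 0.0445). The equally large difference of 0.58 between 24 h and unruptured follicles was not called (SE 0.18, adjusted p = 0.629); only 2 of all 52766 probe sets, or 0.00379%, were called in that comparison. The TEK fall on rupture rested on a narrow margin, since the call was lost in 14 of the 22 fits that left out 1 array, including each that left out an unruptured or a ruptured follicle, with changes from -0.64 to -0.51 and adjusted p up to 0.132; the others were 0 h replicates 5 and 6, 12 h replicates 1 and 2 and 24 h replicates 3 and 4. The dimmer TEK set, MmugDNA.766.1.S1_at, changed at another stage: it fell by 1.01 from 0 h to 24 h (SE 0.24, adjusted p = 0.0229) and by 0.95 from 12 h to 24 h (SE 0.26, adjusted p = 0.0332), and both calls, like its F test call, were lost if 24 h replicate 1, 3 or 4 was left out, the second also if 12 h replicate 2, 3 or 4 was, with adjusted p up to 0.117. With the degradation index as a covariate, the fall on rupture in the brighter set was -0.50 (adjusted p = 0.119) and the change from 12 h to 24 h in the dimmer set was -0.73 (adjusted p = 0.161), neither called. On rupture this dimmer set stood at -0.30 (SE 0.26, adjusted p = 0.563). Its mean was highest at 0 h (4.76), followed by 12 h (4.70), unruptured (4.62), ruptured (4.32) and 24 h follicles (3.76). Over the 22 arrays the 2 TEK sets had a Pearson r of 0.36. The F test on the brighter set, not called in the main fit, passed with trend and robust options (adjusted p = 0.0427). It also passed with only sets at or above the median brightness tested (adjusted p = 0.0335) and without 0 h replicate 2 (adjusted p = 0.0430).

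The mean level of endothelial cell markers was also highest in unruptured follicles, though few of the markers were called singly. The mean level of 19 measured markers of 25 listed, among them PECAM1, CDH5, VWF and TIE1, was 6.47 ± 0.30 at 0 h (range 5.93 to 6.79), 6.62 ± 0.22 at 12 h (6.39 to 6.87), 6.63 ± 0.19 at 24 h (6.38 to 6.84), 6.99 ± 0.16 in unruptured (6.77 to 7.14) and 6.89 ± 0.19 in ruptured follicles (6.74 to 7.18; SD). Of the 19, limma's F test called 2, where 20.1% of all sets were called. Against 0 h, 1 was higher in unruptured follicles (4.72% of all sets) and 1 in ruptured ones (15.8%). Against 24 h, none was called in unruptured or in ruptured follicles (2 each at an unadjusted p below 0.05). Between unruptured and ruptured follicles none of the 19 was called by limma (1 at an unadjusted p below 0.05), with a median change of -0.07, where the median over all probe sets was -0.03. With the endothelial mean of each array as a covariate, the TEK change on rupture was -0.50 (SE 0.13, adjusted p = 0.0182), TEK was 0.48 lower in ruptured follicles than at 0 h (-0.48, adjusted p = 0.0373), and TEK in unruptured follicles stood at 0.02 above 0 h (adjusted p = 0.983). In whole follicles, fewer endothelial cells and less RNA per cell cannot be told apart.

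**Figure D3:**
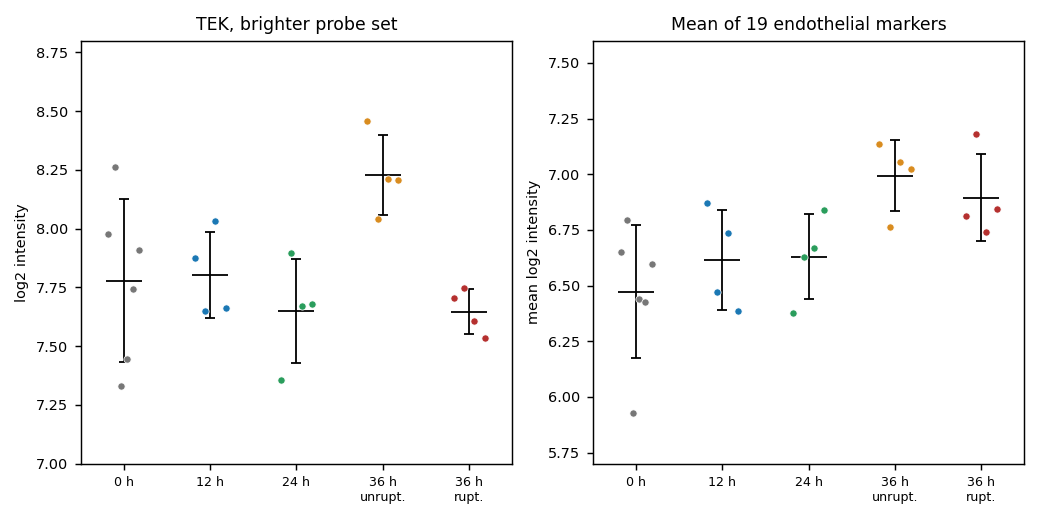
Log2 intensity of TEK by its brighter probe set (left) and the mean log2 intensity of 19 endothelial markers (right) in each follicle, by group. Points are follicles, lines are means and bars are SD. Unruptured follicles are high in both panels, and ruptured follicles return to the 24 h level in TEK (mean 7.65) but not in the marker mean (6.89 against 6.63 at 24 h). Between 24 h and ruptured follicles none of the 19 markers was called by limma (2 at an unadjusted p below 0.05).

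The VEGF receptors gave no call in any of the 10 pairs of groups. KDR, the main signalling receptor for VEGFA, had group means from 4.16 ± 0.25 at 0 h to 4.56 ± 0.39 in ruptured follicles, and single follicles ran from 2.91 at 12 h to 4.97 after rupture. Its largest difference, 0.41 between 0 h and ruptured follicles, had an SE of 0.33 (adjusted p = 0.485). FLT1, which binds VEGFA, VEGFB and PGF and also exists in a soluble inhibitory form, had group means from 3.65 ± 0.68 at 0 h to 4.27 ± 0.51 at 12 h in its brighter set, and its 12 h minus 0 h difference was 0.62 (SE 0.35, adjusted p = 0.336). The dimmer FLT1 set had group means from 1.38 to 2.55 with SDs from 0.94 to 1.40 and no call. For these dim sets a SE of 0.33 to 0.72 against 0 h left room for changes that these arrays could not detect.

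NRP1, the coreceptor that also binds class 3 semaphorins, had no called pair of groups. In its brightest set the 0 h follicles had a lowest, median and highest level of 8.61, 8.92 and 9.27, the unruptured follicles were at 9.16, 9.47, 9.33 and 9.12, and the ruptured ones at 9.55, 9.72, 9.0 and 9.45. The groups overlapped, and ruptured replicate 7 was the lowest of both 36 h groups. The mean of ruptured follicles, 9.43 ± 0.31, was 0.49 above the 8.94 ± 0.29 of 0 h (SE 0.17, adjusted p = 0.0638), and without ruptured replicate 7 the difference was 0.63 (adjusted p = 0.0226). It also passed without 0 h replicate 1, 0 h replicate 4 or 24 h replicate 1, at 0.56, 0.56 and 0.49 (adjusted p of 0.0425, 0.0426 and 0.0499), and in all 22 arrays with 16 added before log2, with limma's trend and robust options or with only the brighter sets tested (adjusted p of 0.0412, 0.0285 and 0.0250). The second NRP1 set, MmugDNA.2717.1.S1_at, gave 0.51 for the same pair (SE 0.19, adjusted p = 0.0729), and without 0 h replicate 1 it gave 0.60 (adjusted p = 0.0366). The dimmest set, MmugDNA.26013.1.S1_at, gave 0.42 (SE 0.29, adjusted p = 0.388).

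By stage, the 4 successive comparisons held 7 member calls in 68 tests. From 0 h to 12 h the single call was PROK1. From 12 h to 24 h, 2 of 17 sets were called, where 6.88% of all sets were: ANGPT1 rose by MmuSTS.3789.1.S1_at, and TEK fell by its dimmer set. From 24 h to unruptured follicles 0 of 17 were called by limma, and 2 had an unadjusted p below 0.05, which were both TEK sets. On rupture 4 of 17 were called, where 9.82% of all sets were, with FGF2 higher (4.83% of all sets) and 2 ANGPT1 sets and the brighter TEK set lower (4.99% of all sets). On rupture 6 of the 17 sets had groups that did not overlap, as did 15.2% of all sets. They were FGF2, which was higher, and 2 ANGPT1 sets, the brighter TEK set and both VEGFB sets, which were lower.

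The other 6 pairs of groups held 12 calls in 102 tests. From 0 h to 24 h, 3 sets were called against 3.36% of all sets, namely 2 ANGPT1 sets, which rose, and the dimmer TEK set, which fell. From 0 h to unruptured follicles 3 ANGPT1 sets rose, against 4.72% of all sets. Unruptured follicles were above 12 h follicles in 2 ANGPT1 sets, against 9.82% of all sets. Ruptured follicles differed from 24 h ones in FGF2, which was higher, and ANGPT1 by MmuSTS.3789.1.S1_at, which fell by 1.12 (SE 0.26, adjusted p = 0.0101), against 9.31% of all sets. Between 12 h and ruptured follicles limma called 0 of 17 sets, with 4 at an unadjusted p below 0.05, against 1.60% of all sets.

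**Figure D4:**
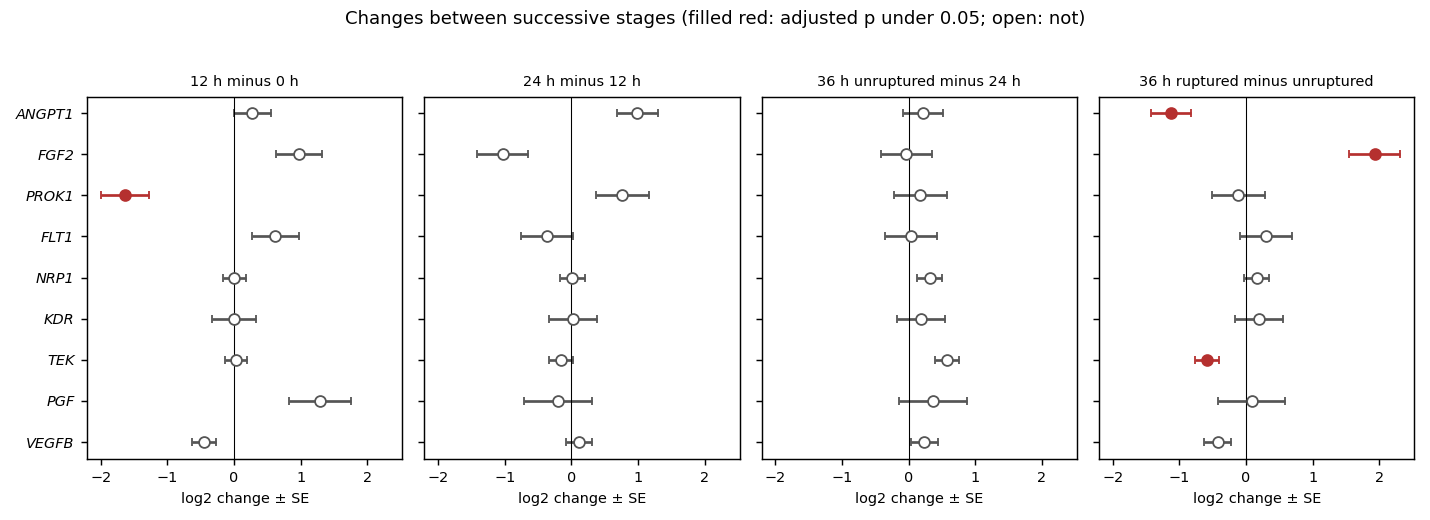
Log2 change between successive stages for the brightest probe set of each of the 9 genes, with bars of 1 SE; filled red points have an adjusted p below 0.05. Only PROK1 passes at 12 h, none passes at 24 h or between 24 h and unruptured follicles, and ANGPT1, FGF2 and TEK pass on rupture.

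Genes that work with the members were read from 8 lists, with each gene by its brightest set. Over all probe sets 20.1% were called by the F test, 9.33% at 12 h against 0 h, 6.88% at 24 h against 12 h and 9.82% on rupture. These shares cover all 52766 probe sets, dim ones and the 27449 without a symbol included. No share over the brightest sets of named genes alone was computed, so for these lists and the marker lists they are not a like-for-like baseline. Of 15 measured genes of 19 listed as FGF receptors and partners, 4 rose and 1 fell at 12 h, 3 fell from 12 h to 24 h, and 3 rose on rupture, with median changes of 0.19, -0.13 and 0.31 where all probe sets had medians between -0.03 and 0.00. SPRY4, a feedback inhibitor of FGF signalling, rose by 2.38 at 12 h (SE 0.28, adjusted p = 3.85e-05), fell by 2.08 at 24 h (SE 0.31, adjusted p = 5.87e-04) and was 2.40 higher after rupture (SE 0.31, adjusted p = 9.63e-05). SDC4, a heparan sulfate proteoglycan that binds FGF2, rose by 0.96 at 12 h (SE 0.16), fell by 0.95 at 24 h (SE 0.17, adjusted p = 0.00276) and was 1.39 higher after rupture (SE 0.17, adjusted p = 8.70e-05). SPRY1, a relative of SPRY4, rose by 1.06 at 12 h (SE 0.24, adjusted p = 0.00750). FGFR1, a receptor for FGF2, stood at -0.17 on rupture (SE 0.20, adjusted p = 0.684).

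Of 8 measured genes of 12 in the list of the VEGF family and coreceptors, 3 rose at 12 h, 1 rose from 12 h to 24 h, and 1 rose and 1 fell on rupture, with medians of 0.07, 0.01 and 0.09. SEMA3C, a class 3 semaphorin, rose by 1.08 from 12 h to 24 h (SE 0.20, adjusted p = 0.00326) and fell by 0.91 on rupture (SE 0.20, adjusted p = 0.00734). SEMA3F, a semaphorin that binds neuropilins, rose by 0.93 at 12 h (SE 0.17, adjusted p = 0.00152). SEMA3A, the semaphorin that binds NRP1, rose by 1.07 at 12 h (SE 0.30, adjusted p = 0.0320), a call lost if 1 array among replicates 3, 4 and 5 at 0 h or 1, 2 and 4 at 12 h was left out (adjusted p up to 0.133). PDGFA, a growth factor for mural cells, rose by 0.86 on rupture (SE 0.20, adjusted p = 0.00831). Of 8 measured genes of 10 in the angiopoietin and TIE list, TNIP2, an NF-kB inhibitor that binds TEK, rose by 0.44 at 12 h (SE 0.11, adjusted p = 0.0123) and was the only call in the successive comparisons. TIE1, the orphan partner of TEK, stood at -0.09 on rupture (SE 0.27, adjusted p = 0.893). In the prokineticin list none of 3 measured genes of 4 was called by limma's F test or in any pair of groups (0 at an unadjusted F test p below 0.05, and 1 each at 12 h against 0 h and for ruptured against 12 h), and the receptor PROKR1 had group means from 1.03 to 2.14.

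Downstream of VEGF receptors, 15 of 24 measured genes of 30 were called by the F test, against 20.1% of all sets, and 4 rose and 5 fell on rupture, against 4.83% and 4.99%, with a median of 0.07 where all sets had -0.03. Again the genes are counted by their brightest sets, whereas the shares include dim and unnamed sets. The same F test called 8 of 15 FGF receptors and partners, 6 of 9 oxygen sensing genes and 6 of 14 angiogenesis inhibitors. In the other lists it called 4 of 15 tip, stalk and Notch, 3 of 8 VEGF family, 2 of 8 angiopoietin and 0 of 3 prokineticin genes. RCAN1, a calcineurin regulator induced by VEGF, rose by 1.39 at 12 h (SE 0.21, adjusted p = 4.25e-04), fell by 1.49 at 24 h (SE 0.23, adjusted p = 8.60e-04) and was 1.98 higher after rupture (SE 0.23, adjusted p = 4.99e-05). DUSP5, a phosphatase of ERK, was 4.72 higher after rupture than before (SE 0.93, adjusted p = 0.00303), from a dim mean of 2.25 ± 1.86 (SD) in unruptured follicles. SPHK1, a lipid kinase, rose by 1.11 at 12 h (SE 0.31, adjusted p = 0.0300), lost if 1 array among replicates 3 and 5 at 0 h or 2, 3 and 4 at 12 h was left out (adjusted p up to 0.125). SHB, an adaptor of KDR, fell by 0.72 from 12 h to 24 h (SE 0.20, adjusted p = 0.0347), lost if 1 array among replicates 1, 3 and 4 at 12 h or 1, 2 and 3 at 24 h was left out (adjusted p up to 0.117).

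Of 9 measured genes of 14 for oxygen sensing, 2 fell at 12 h, 3 rose and 1 fell from 12 h to 24 h, and 1 fell on rupture, against 9.33%, 6.88% and 9.82% of all sets, with medians of 0.26, 0.36 and -0.17. HIF3A, a hypoxia-inducible factor subunit, rose by 1.64 from 12 h to 24 h (SE 0.30, adjusted p = 0.00249) and fell by 2.05 on rupture (SE 0.30, adjusted p = 2.86e-04). CITED2, which competes with HIF1A for its coactivator, fell by 0.55 at 12 h (SE 0.17, adjusted p = 0.0462) and rose by 1.49 at 24 h (SE 0.19, adjusted p = 1.74e-04); the first call was lost in 15 of 22 fits without 1 array, with adjusted p up to 0.147, and kept only without 0 h replicate 2, 12 h replicate 2, 24 h replicate 1 or 3, unruptured replicate 1 or ruptured replicate 5 or 7. CA9, a carbonic anhydrase induced by hypoxia, fell by 1.10 at 12 h (SE 0.28, adjusted p = 0.0150), lost without 12 h replicate 2 (adjusted p = 0.0635).

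Of 14 measured genes of 16 listed as angiogenesis inhibitors, 4 rose at 12 h (median 0.22) and 2 rose on rupture (median -0.05), and 6 were higher in ruptured follicles than at 0 h, with a median of 0.77 against -0.03 over all probe sets, of which 15.8% were called. For that pair, the VEGF signalling list had 9 higher and 2 lower of 24 (median 0.15). The FGF list had 4 and 1 of 15 (0.06), oxygen sensing 3 and 1 of 9 (0.29) and the VEGF family 2 and 1 of 8 (0.11). Angiopoietin genes had 2 and 0 of 8 (0.28), Notch genes 2 and 2 of 15 (0.19) and prokineticin genes 0 of 3 (0.09). THBS2, a secreted inhibitor of endothelial growth, rose by 0.94 on rupture (SE 0.18, adjusted p = 0.00265). ADAMTS1, a matrix protease with antiangiogenic activity, rose by 1.21 on rupture (SE 0.33, adjusted p = 0.0261), lost without unruptured replicate 1, 2 or 3 or ruptured replicate 6 or 7 (adjusted p up to 0.0940). SERPINF1, also called PEDF, rose by 1.19 at 12 h (SE 0.19, adjusted p = 5.19e-04), and SERPINC1, antithrombin, by 1.17 (SE 0.36, adjusted p = 0.0491), lost in 15 of 22 fits without 1 array (adjusted p up to 0.142) and kept only without 0 h replicate 1 or 5, 12 h replicate 1, 24 h replicate 2 or 3, unruptured replicate 4 or ruptured replicate 8. TIMP2, an inhibitor of matrix proteases, rose by 0.64 from 12 h to 24 h (SE 0.16, adjusted p = 0.0205), lost if 1 array among replicates 1, 2 and 4 at 12 h or 1 and 3 at 24 h was left out (adjusted p up to 0.0627). Among 15 measured of 18 tip, stalk and Notch genes, 0 were called at 12 h by limma (3 at an unadjusted p below 0.05) and 2 fell on rupture, the Notch ligand JAG1 by 0.60 (SE 0.13, adjusted p = 0.00525) and the Notch target HEY1 by 0.70 (SE 0.18, adjusted p = 0.0165; lost without unruptured replicate 1 or 4 or ruptured replicate 5, adjusted p up to 0.0663).

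**Figure D5:**
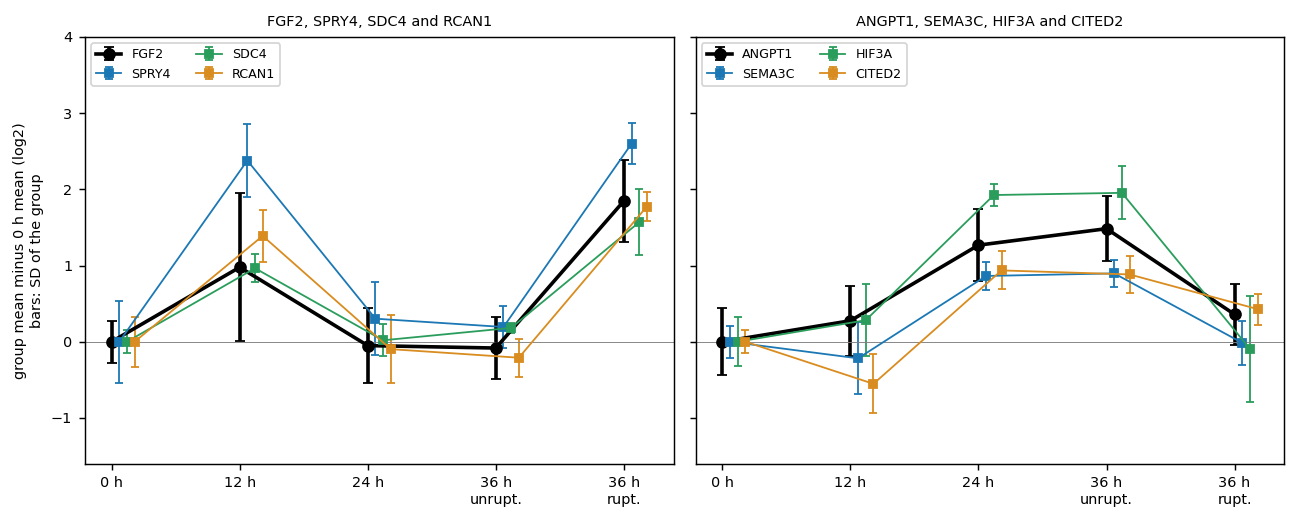
Group means relative to the 0 h mean, in log2, with bars of the group SD, for FGF2 with SPRY4, SDC4 and RCAN1 (left) and for ANGPT1 with SEMA3C, HIF3A and CITED2 (right), the listed genes that the naming rule reached in 2 or more successive comparisons. The split into panels was made after their values were seen; successive comparisons share the arrays of the middle stage. The left panel has high points at 12 h and after rupture, and the right panel is highest at 24 h and in unruptured follicles.

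Over the 22 arrays, which share stage and processing, the genes whose level ran most like a member's were searched among 9007 named genes at or above the middle brightness. For ANGPT1 they were CALHM2 (Pearson r = 0.85), TMEM107 (r = 0.84) and STIM1 (r = 0.84). For FGF2 they were GNPNAT1 (r = 0.91), AHI1 (r = 0.90) and the cytokine gene LIF (r = 0.90). For PROK1 they were TTC17 (r = 0.81), FZD5 (r = 0.78) and PHYH (r = 0.78).

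Levels of other cell type markers moved beside the members. The mean of 8 granulosa markers was 9.66 at 0 h, 8.28 at 12 h, 7.64 at both 24 h and the unruptured stage, and 8.50 after rupture, and that of 9 theca markers went from 9.53 at 0 h to 8.95 at 12 h and 8.57 after rupture. Only part of these markers was called by limma. At 12 h against 0 h, 3 granulosa and 3 theca markers were lower, where 9.33% of all sets were called. In ruptured follicles against 0 h, 3 granulosa and 4 theca markers were lower, where 15.8% of all sets were called. Smooth muscle markers, 7 in number, had a mean of 9.63 at 0 h and of 10.2 at each of the last 3 stages. Of 11 macrophage markers 4 rose at 12 h, where 9.33% of all sets were called in either direction. The part of granulosa, theca and macrophage levels in the member changes was not tested. With the endothelial mean of each array as a covariate, ANGPT1 in unruptured follicles stood 1.52 above 0 h and was no longer called (SE 0.38, adjusted p = 0.0694), and the call of MmugDNA.9153.1.S1_s_at for that pair ended with it and with the pericyte and smooth muscle mean (adjusted p of 0.191 and 0.109). The PGF difference between 0 h and ruptured follicles was 1.56 with the endothelial mean (SE 0.57, adjusted p = 0.106) and 1.45 with the pericyte and smooth muscle mean (SE 0.56, adjusted p = 0.114), not called in either fit. The fall of the dimmer TEK set from 0 h to 24 h was -1.14 with the pericyte and smooth muscle mean and not called (adjusted p = 0.0540). The calls of PROK1 at 12 h and of ANGPT1 on rupture were kept with both marker means.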

How the data were processed

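Total RNA of 22 single follicles was amplified by the Affymetrix one-cycle protocol, per the labels' protocols. The authors deposited intensities, made with RMA per the submitters' processing notes; neither the labels nor the notes used here give its version or a genome build. The deposited values spanned 0.0361 to 15137, and the medians of the arrays lay between 26.1 and 26.7, a linear scale, so log2 was taken here. The 99 control probe sets were left out. Groups came from the titles. A group-means model was fitted to all 52766 other probe sets with limma 3.58.1 in R 4.3.3 (lmFit, eBayes, two-sided, Benjamini-Hochberg), tested on simulated data first. Names came from the platform annotation, and all 9 member names matched the RefSeq table. The members, gene lists and tests were chosen with earlier results of these data known. Named were all member sets, up to 2 called genes of largest change per list and successive comparison, and the 3 genes most correlated with each member whose brightest set passed the F test; other genes were added as receptors or defining markers after their values were seen. No batch, scan date or detection call was given, the number of arrays limits the precision, and no 2 arrays held identical values. No sequence is shown.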

Additional observations from a re-analysis of the deposited data

Results flagged for a closer look

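In 11 of 85 groups of a member's probe set, the highest or lowest follicle lay further from its nearest neighbour than Dixon's critical value allows, where chance flags about 1 in 20 groups. For PROK1, 12 h replicate 1 was high at 6.93 with the other 3 between 6.19 and 6.27, and 24 h replicate 2 was low at 6.93 with the others between 7.22 and 7.26. For VEGFB, 0 h replicate 3 was high at 8.74 and ruptured replicate 8 high at 8.04, and in the dimmer set ruptured replicate 5 was low at 1.13 with the others between 4.70 and 5.20. For ANGPT1, 0 h replicate 1 was low at 5.30 in MmugDNA.9153.1.S1_s_at, and in the dimmest set 12 h replicate 3 was low at 1.36 and unruptured replicate 2 high at 3.10. The FLT1 level of 0 h replicate 1 was low at 2.38, the PGF level of 24 h replicate 2 low at 4.92, and the level of unruptured replicate 4 in the dimmer TEK set low at 4.41. All of these are log2 intensities.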

How the results depend on the processing

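No called member change reversed its sign under any alternative run. Quantile normalization and centring on the array median kept every count of called member sets. With 16 added before log2, 2 sets were called at 12 h against 0 h in place of 1; with only sets at or above the median brightness, 3 were, and the 6 remaining pairs of groups held 20 calls in place of 12. Fitting only the compared groups, with the spread estimated from those groups alone, left 0 calls at 12 h, 0 from 12 h to 24 h (2 in the full fit) and 2 on rupture (4 in the full fit). With the degradation index of each array as a covariate there was 1 call from 12 h to 24 h, and there were 2 on rupture. Leaving out 1 array at a time gave 4 to 7 calls in the F test, 1 to 3 at 12 h, 1 to 3 from 12 h to 24 h, 0 from 24 h to unruptured, 2 to 5 on rupture and 10 to 14 in the remaining pairs. With the replicate number as a block (replicate block), the calls were 2 in the F test, 1 from 12 h to 24 h, 0 on rupture and 4 in the remaining pairs. The labels do not say whether the numbers pair follicles. After group means were removed, 0 of 20 arrays correlated best with an array of their own number in another group. That check cannot exclude a shared animal or batch. The 2 groups at 36 h share no number. Numbers 7 and 8 occur only in ruptured follicles, and 5 and 6 recur only at 0 h. The block fit therefore takes the ruptured level from replicates 5 and 6 alone, so calls lost there are no check of the changes on rupture. The median of a gene's probe sets, as 1 row per gene, ended the TEK call on rupture (-0.44, adjusted p = 0.170). The spread of dim sets limits KDR, FLT1 and the second sets of TEK and VEGFB.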
